A study of Homo sapiens with 4 samples.

Results

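The core and linker histone genes encode the proteins that package DNA into chromatin, and their transcripts were followed in Huh-7 cells, a line from a human hepatocellular carcinoma, with and without transforming growth factor beta (TGF-beta). Members were the probe sets (groups of array probes for a transcript) whose gene symbol or older alias is a histone name. Of 22215 probe sets, 96 carried such a name. For 10 of these the name is an old alias of an unrelated gene (CLIC4, VPS45, SERF2, HRH4 and others), and they were set aside. The remaining 86 probe sets name 68 histone genes, of 12864 genes named on the array, and are the subject here, 4 of them (those of the macro-H2A genes) through an alias. Of the 86, 74 name 1 gene and 12 name several, and 19 carry the suffix _x_at and 19 the suffix _s_at, which mark probes that can match more than 1 transcript.

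The untreated group holds 2 arrays of Huh-7 cells grown in medium with 10% heat-inactivated bovine serum, and the TGF-beta group 2 arrays of the same line harvested 48 h after the addition of TGF-beta, at a dose that the sources used here do not give. The sample labels used here give no harvest time for the untreated arrays. No genetic change distinguishes the groups, and the findings concern a single tumour line. The arrays are numbered 1 and 2 in each group without a statement that they are separate cultures, and p-values therefore rest on the spread between these arrays alone, which may be technical. Median intensities were 50.1 to 51.0 over the 4 arrays. Defining hepatocyte products were bright (10 of 10 measured markers, mean untreated intensities of 1761 to 33922). Of these only APOA1 was called by limma, higher (log2 fold change 0.74, adjusted p = 0.0454). At an unadjusted limma p under 0.05, 2 were higher and 1 lower, TTR (-0.63, adjusted p = 0.0533). Endothelial (4 genes) and fibroblast (5 genes) markers had mean untreated intensities of 20.03 to 57.4. Among 4 leukocyte markers, PTPRC, which defines the lineage, stayed at intensities of 28.3 to 31.7, and CD14 rose 2.005-fold (adjusted p = 0.0185). The known TGF-beta target genes SMAD7, SKIL and PMEPA1 had log2 fold changes of -0.03, 0.06 and -0.23 and were not called.

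Each nucleosome is a spool of the core histones H2A, H2B, H3 and H4, and the linker histone H1 binds where DNA enters and leaves it. Most histone proteins come from intronless genes packed in clusters, which are transcribed in S phase to match DNA replication and whose mRNAs end in a stem-loop instead of a poly(A) tail. Replacement variants such as H2AZ1, H3-3A and H3-3B are encoded outside the clusters by genes that are active through the cell cycle and give polyadenylated mRNA. Standard labelling for these arrays starts at the poly(A) tail, so a dim probe set of a clustered gene does not measure its total mRNA. The labels refer only to the manufacturer's manual for this step, and its part in the values was not tested.

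After TGF-beta, 1 histone probe set of 86 was called changed, that of H2AX, the variant that is phosphorylated around DNA breaks. It rose 1.85-fold. The other 85 probe sets did not pass an adjusted p of 0.05 (limma), and their log2 fold changes lay between -0.24 and 0.48. Over all probe sets 190 were called, 0.855% of 22215, so 1 call among 86 (1.16%) is near the share found for the whole array. At an unadjusted p under 0.05, 8 histone probe sets were higher (9.30%, against 8.11% of all probe sets) and 0 were lower (against 8.15%). The 8 belong to H2AX (2 probe sets), H2AZ2, H2BC12, H2BC5, H2BC10, the H2AC18 and H2AC19 pair, and MACROH2A1. The median log2 fold change of the 86 was 0.01, beside -0.01 for all probe sets. With each array centred on its median it was -0.01, beside -0.03 for all probe sets.

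Signal divided the members into those with room to be measured and those near the floor. The limit used was a mean log2 intensity of 6 over the 4 arrays, which 45.4% of all probe sets exceeded. Of the 24 probe sets of variant genes 20 were above it, and of the 62 probe sets of clustered genes 15 were. All 11 probe sets of clustered H3 genes were below it, with mean untreated intensities of 22.5 to 55.2, as were 11 of 14 for H4, 11 of 18 for H2B, 9 of 13 for clustered H2A and 5 of 6 for clustered H1. Probes differ in how strongly they bind, so the place of a probe set above or below this limit does not rank its gene's mRNA against that of another gene.

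**Figure D1:**
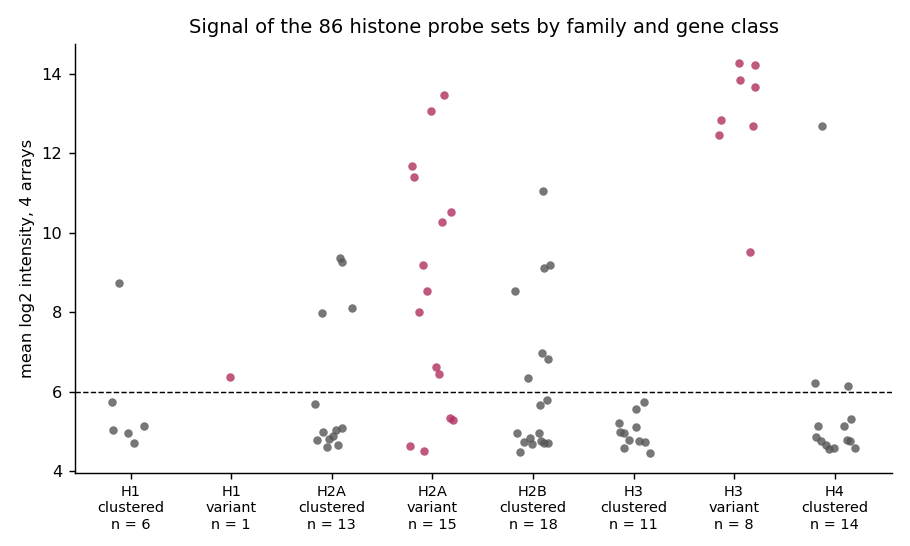
Mean log2 intensity over the 4 arrays (vertical axis) of each of the 86 histone probe sets, 1 point each, by protein family and by gene class (clustered genes in grey, variants in red), with the limit of 6 dashed. All 11 clustered H3 points lie under the limit and all 8 H3 variant points above it.

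H2AX gave the only call. Its promoter, the 250 bases before the annotated start (RefSeq, GRCh38.p14, chr11:119095466-119095715 (- strand)), is shown because it belongs to the histone gene with this call. Capitals mark CCAAT and TATAAA on either strand, and ATTTGCAT and GGGCGG were also searched.
H2AX: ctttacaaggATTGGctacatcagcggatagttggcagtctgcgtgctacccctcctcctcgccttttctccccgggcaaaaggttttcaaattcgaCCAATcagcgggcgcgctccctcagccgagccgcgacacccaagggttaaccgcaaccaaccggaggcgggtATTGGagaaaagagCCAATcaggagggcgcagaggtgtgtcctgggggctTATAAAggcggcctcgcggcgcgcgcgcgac
It holds CCAAT 4 times and TATAAA once, 31 bases before the start, and neither ATTTGCAT nor GGGCGG in these letters. At probe set 205436_s_at the intensities of H2AX were 491 and 379 on the untreated arrays and 807 and 788 after TGF-beta. Both treated arrays were above both untreated arrays, and the untreated arrays differed more from each other than the treated ones. The log2 fold change was 0.89 ± 0.14 (SE, n = 2 per group), with a 95% interval of 0.56 to 1.22 and an adjusted p of 0.0475 by limma. Here and throughout, the SE and interval come from limma's variance, which is drawn toward that of all probe sets. They do not measure the spread of a probe set's own arrays alone. The call was close to the threshold: it was lost under quantile normalization (0.92, adjusted p = 0.0522), with dim probe sets left out (0.89, adjusted p = 0.0577), without TGF-beta array 1 (0.87, adjusted p = 0.290) and without TGF-beta array 2 (0.90, adjusted p = 0.218), while the log2 fold change stayed near 0.89. It was kept without untreated array 1 (1.07, adjusted p = 0.0120) and without untreated array 2 (0.70, adjusted p = 0.0301). Without either TGF-beta array, 0 probe sets of the whole array were called by limma, although 2251 and 2712 had an unadjusted p under 0.05.

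The array holds 4 probe sets for H2AX, whose mRNA is made both in a stem-loop form and in a longer polyadenylated form. Probe set 213344_s_at read 92.1 and 80.3 on the untreated arrays and 132 and 98.5 after TGF-beta. Its treated arrays were also the higher ones, and its log2 fold change of 0.41 ± 0.16 (SE) did not pass (adjusted p = 0.265). It was 0.20 without TGF-beta array 1 and 0.62 without TGF-beta array 2. The remaining probe sets were dim: 212525_s_at read 38.1 and 40.4 before and 41.4 and 42.3 after treatment, and 212524_x_at stayed between 21.5 and 24.7 on all arrays. Their log2 fold changes were 0.09 and 0.04. The mean of the 4 probe sets gave 0.36, and the call was lost (adjusted p = 0.110). Whether the probe sets differ from each other was not tested.

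**Figure D2:**
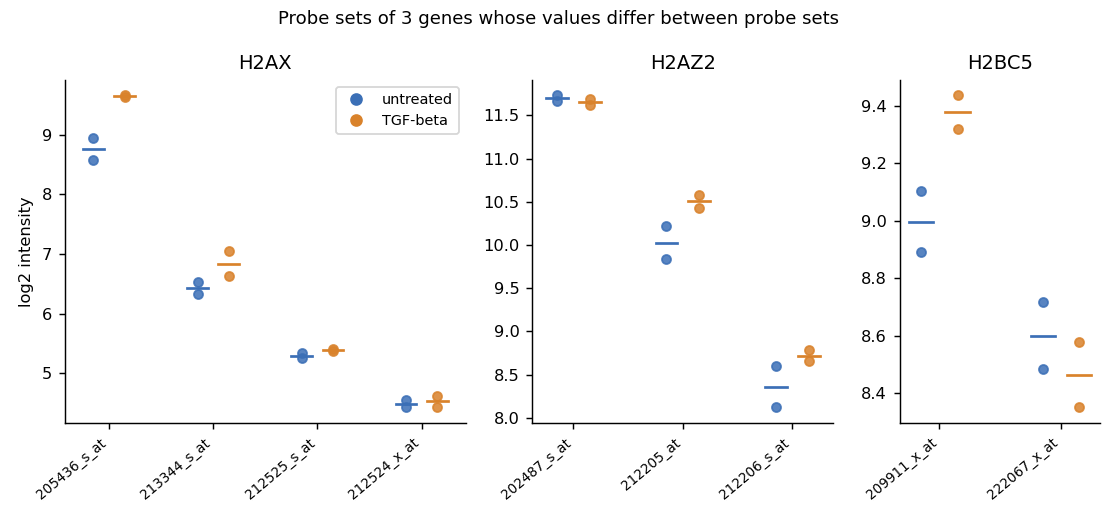
Log2 intensity (vertical axis, a separate scale per panel) of every probe set of H2AX, H2AZ2 and H2BC5, the 3 genes whose probe sets gave log2 fold changes more than 0.5 apart; points are arrays (blue untreated, orange TGF-beta) and short lines are group means of 2 arrays. The H2AX probe set 205436_s_at shows the largest step between groups, 0.89, and the dimmest H2AX probe set a step of 0.04.

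H2AZ2 and H2AZ1 encode the H2A variant placed at promoters and enhancers. H2AZ2 was read by 3 probe sets. Probe set 212205_at read 914 and 1191 on the untreated arrays and 1381 and 1529 after TGF-beta, and 212206_s_at read 278 and 388, then 442 and 403. In both, the treated arrays were above the untreated ones, with untreated array 1 the lowest. The log2 fold changes were 0.48 ± 0.15 (SE, adjusted p = 0.168) and 0.36 ± 0.16 (adjusted p = 0.337). Without untreated array 2 the first was called, at 0.67 (adjusted p = 0.0412), and without untreated array 1 it was 0.29. The second was 0.60 and 0.12 in the same fits. The third H2AZ2 probe set, 202487_s_at, read 3260 and 3403 on the untreated arrays and 3148 and 3312 after treatment. Its groups overlapped, and its value was -0.04 ± 0.10. H2AZ1 read 8383 and 8426, then 8584 and 9244, at 200853_at, and 11230 and 11009, then 11765 and 11765, at 213911_s_at. Its groups did not overlap at either probe set, yet the log2 fold changes were small, 0.08 (95% interval -0.16 to 0.33) and 0.08 (-0.16 to 0.32).

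Macro-H2A, an H2A with a large extra domain that is enriched in silent chromatin, is encoded by MACROH2A1 and MACROH2A2. MACROH2A1 read 2538 and 2451 on the untreated arrays and 3024 and 2881 after TGF-beta at 207168_s_at. At 214501_s_at, which also names TLR4, it read 1344 and 1296, then 1611 and 1632. Treated arrays were the higher ones in both, by 0.24 ± 0.10 and 0.30 ± 0.10 on the log2 scale, and neither passed (adjusted p = 0.308 and 0.215). The third probe set, 214500_at, overlapped between groups (-0.10 ± 0.17). MACROH2A2 read 317 and 241 on the untreated arrays and 265 and 213 after TGF-beta, with overlapping groups and a value of -0.22 ± 0.17. H2AJ, an H2A variant, and the H2AB1 and H2AB3 pair, testis variants, were dim, with values of -0.05 and -0.16.

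The replacement H3 that is laid down outside replication is made from H3-3A and H3-3B. All 4 probe sets of H3-3A also name the pseudogenes H3P6 or H3P16 and cannot separate them. Probe set 213828_x_at read 19037 and 19894 on the untreated arrays and 19005 and 20958 after TGF-beta. Its groups overlapped, at 0.04 ± 0.11 (95% interval -0.22 to 0.29), and the other H3-3A values were 0.03, 0.03 and 0.16. H3-3B was read by 4 probe sets. The bright probe set 211997_x_at gave 6889 and 7030, then 7639 and 7614, a log2 fold change of 0.13 ± 0.10. Probe set 211999_at had the highest value of the H3 family, 0.16 ± 0.12, from 5600 and 5068 to 5510 and 6452, with overlapping groups, and 211998_at gave -0.12 ± 0.11. No H3 probe set reached an unadjusted p under 0.05.

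Among clustered H2B genes, H2BC12 was read at 209806_at with intensities of 1884 and 1829 on the untreated arrays and 2295 and 2490 after TGF-beta. The treated arrays were above the untreated ones, and the log2 fold change of 0.36 ± 0.11 (SE) did not pass (adjusted p = 0.149). With a variance prior that follows intensity it was called (adjusted p = 0.0493). Its other probe set, 208579_x_at, read 537 and 514, then 565 and 585, a smaller value of 0.13 ± 0.10. H2BC5 was read by 2 probe sets: 209911_x_at read 550 and 475, then 639 and 693 (0.38 ± 0.12, adjusted p = 0.176), and 222067_x_at read 421 and 358, then 326 and 382, with overlapping groups (-0.14 ± 0.13). Left-out arrays moved the latter between -0.25 and -0.02. Both are of the _x_at kind. H2BC6 and H2BC7, above the limit for bright, gave 0.15 and 0.12 with treated arrays above untreated ones, and H2BC9 gave -0.03 with overlap. Each of these genes was read only by an _x_at probe set, which can also match other transcripts. The lowest value of the family was that of H2BC11, which was dim, with intensities of 27.6 and 28.8, then 24.2 and 24.9 (-0.20 ± 0.10). H2BC10, dim as well, stood at 0.27 ± 0.10, from 28.4 and 28.2 to 33.4 and 34.6.

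Histone H2B promoters are known for an octamer, ATTTGCAT, bound by POU-family factors, and it was searched together with the CCAAT box, with the TATA element TATAAA and with the GC box GGGCGG on both strands of RefSeq windows from 250 bases before to 50 after each start. Of the 68 histone genes 64 had such a window. The octamer was in 12 of 15 H2B genes (80.0%), 7 of 20 H2A genes and 0 of 12 H4 genes, against 2.19% of 27305 genes with a window. CCAAT was in 53 of 64 histone genes (82.8%, against 39.7%) and TATAAA in 39 (60.9%, against 14.0%). GGGCGG was in 20 (31.2%, against 48.3%). Among H2B genes the octamer was in 4 of 5 with a bright probe set and 8 of 10 with dim ones.

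The following promoters show the brightest H2B probe set's gene (H2BC12), the H2B gene with the lowest log2 fold change (H2BC11), the H2B gene whose probe sets gave log2 fold changes over 0.5 apart (H2BC5) and the gene of the brightest clustered H2A probe set (H2AC6). Each is the 250 bases before a RefSeq start in GRCh38.p14, with the same motifs in capitals. TTTATAAA in 2 of them holds TATAAA on both strands, which overlap.
H2BC12, chr6:27146856-27147105 (- strand): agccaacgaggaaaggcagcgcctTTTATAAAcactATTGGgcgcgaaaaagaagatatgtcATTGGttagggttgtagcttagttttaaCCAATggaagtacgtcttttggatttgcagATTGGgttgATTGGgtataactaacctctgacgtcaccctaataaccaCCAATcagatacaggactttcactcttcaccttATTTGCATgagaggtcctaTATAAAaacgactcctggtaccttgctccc
H2BC11, chr6:27132796-27133045 (- strand): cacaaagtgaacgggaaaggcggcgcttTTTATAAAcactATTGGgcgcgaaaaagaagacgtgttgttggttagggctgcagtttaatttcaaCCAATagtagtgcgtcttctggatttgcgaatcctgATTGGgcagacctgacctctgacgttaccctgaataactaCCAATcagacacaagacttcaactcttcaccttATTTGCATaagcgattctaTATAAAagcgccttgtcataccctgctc
H2BC5, chr6:26157871-26158120 (+ strand): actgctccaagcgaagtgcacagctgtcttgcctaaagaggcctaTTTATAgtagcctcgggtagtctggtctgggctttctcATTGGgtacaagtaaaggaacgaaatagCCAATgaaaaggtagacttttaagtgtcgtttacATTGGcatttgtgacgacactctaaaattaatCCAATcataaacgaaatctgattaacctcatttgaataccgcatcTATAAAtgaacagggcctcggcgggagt
H2AC6, chr6:26123922-26124171 (+ strand): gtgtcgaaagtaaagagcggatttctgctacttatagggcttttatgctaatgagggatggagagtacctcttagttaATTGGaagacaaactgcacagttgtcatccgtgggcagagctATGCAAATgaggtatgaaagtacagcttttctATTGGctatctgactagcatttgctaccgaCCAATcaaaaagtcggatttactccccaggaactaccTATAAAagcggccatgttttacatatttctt
H2BC12 and H2BC11 have ATTTGCAT 49 and 47 bases before the start and TATAAA 30 and 28 bases before it, and the sequences were identical at 79.3% of 256 aligned columns. H2BC5 lacks the exact octamer. H2AC6 carries it on the other strand, which is the sense strand of its divergent neighbour H2BC4. Their 300-base windows overlap by 255 bases. Of 8 such divergent pairs of measured histone genes, 7 join an H2A and an H2B gene.

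Clustered H2A genes had 13 probe sets and 0 calls, where 0.855% of all probe sets were called. H2AC6 at 215071_s_at, the brightest of them, read 686 and 652 on the untreated arrays and 691 and 614 after TGF-beta, overlapping groups with a value of -0.04 ± 0.11 that was 0.048 without TGF-beta array 2. The H2AC18 and H2AC19 genes share probe set 218280_x_at, which read 256 and 231, then 302 and 330. Its treated arrays were the higher ones, at 0.38 ± 0.11 (adjusted p = 0.160), while the other shared probe set, 214290_s_at, overlapped between groups at 0.20 ± 0.14. Another that names only H2AC18 was dim (-0.02). H2AC25, of the small HIST3 cluster, had the lowest value of all 86 probe sets, -0.24 ± 0.13, from 297 and 251 to 213 and 251, a pair of arrays nearly touching across groups (adjusted p = 0.441).

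None of the 14 H4 and 7 H1 probe sets was called, where 0.855% of all probe sets were. H4C3 read 6569 and 6313 on the untreated arrays and 6495 and 6878 after TGF-beta, with overlapping groups, 0.05 ± 0.11 and a 95% interval of -0.19 to 0.30. The H4C11 and H4C12 pair gave 0.01 and -0.17 at its probe sets, and both signs turned with an array left out, the first also under either scaling. The extremes of the H4 family were dim genes, H4C9 at 0.15 and H4C4 at -0.17. Among the linker histones, H1-2 read 455 and 329, then 473 and 458, where untreated array 2 was the low one (0.27 ± 0.16, adjusted p = 0.470). Its value was 0.033 without that array and 0.50 without untreated array 1. H1-10, a linker variant outside the clusters, read 76.9 and 77.5, then 94.5 and 81.9 (0.19 ± 0.12). H1-1, dim, stood at 0.26, and H1-4 had the lowest H1 value, -0.04, at intensities of 25.1 to 27.7 on all arrays. The testis genes H1-6 and H3-4 were dim, with values of 0.06 and 0.06.

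Values were also summarised apart for bright and dim members. Of the 35 bright probe sets 26 (74.3%, against 48.7% of all bright probe sets) had a log2 fold change above 0, with a median of 0.12 (0.11 under quantile normalization and 0.10 with arrays centred on their medians), and of the 51 dim ones 18 did, with a median of -0.03. Both treated arrays were above both untreated ones in 19 of the 35 (54.3%), where 27.5% of all bright probe sets showed this, and below them in 2 (5.71%, against 31.0%). Among the 51 dim ones they were above in 5 (9.8%) and below in 8 (15.7%). Shares over all dim probe sets were not computed. Over all 86 the treated arrays were the higher ones in 24 (27.9%, against 22.2% of all probe sets) and the lower ones in 10 (11.6%, against 24.9%). Several probe sets share a gene, so the count was also taken with the brightest probe set for each gene or inseparable group of genes. Of 19 such entries that were bright, 13 (68.4%) were above 0, against 50.2% of 6368 bright genes, 10 (52.6%) had all treated arrays higher, against 29.2%, and 1 was lower, against 30.6%. The values are a description of genes that share arrays and partly sequence, and no test of the set was made. Among bright probe sets the median was 0.12 for clustered genes (n = 15, 66.7% above 0) and 0.12 for variants (n = 20, 80% above 0), and under quantile normalization it was 0.079 and 0.12. The difference between the classes was not tested.

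**Figure D3:**
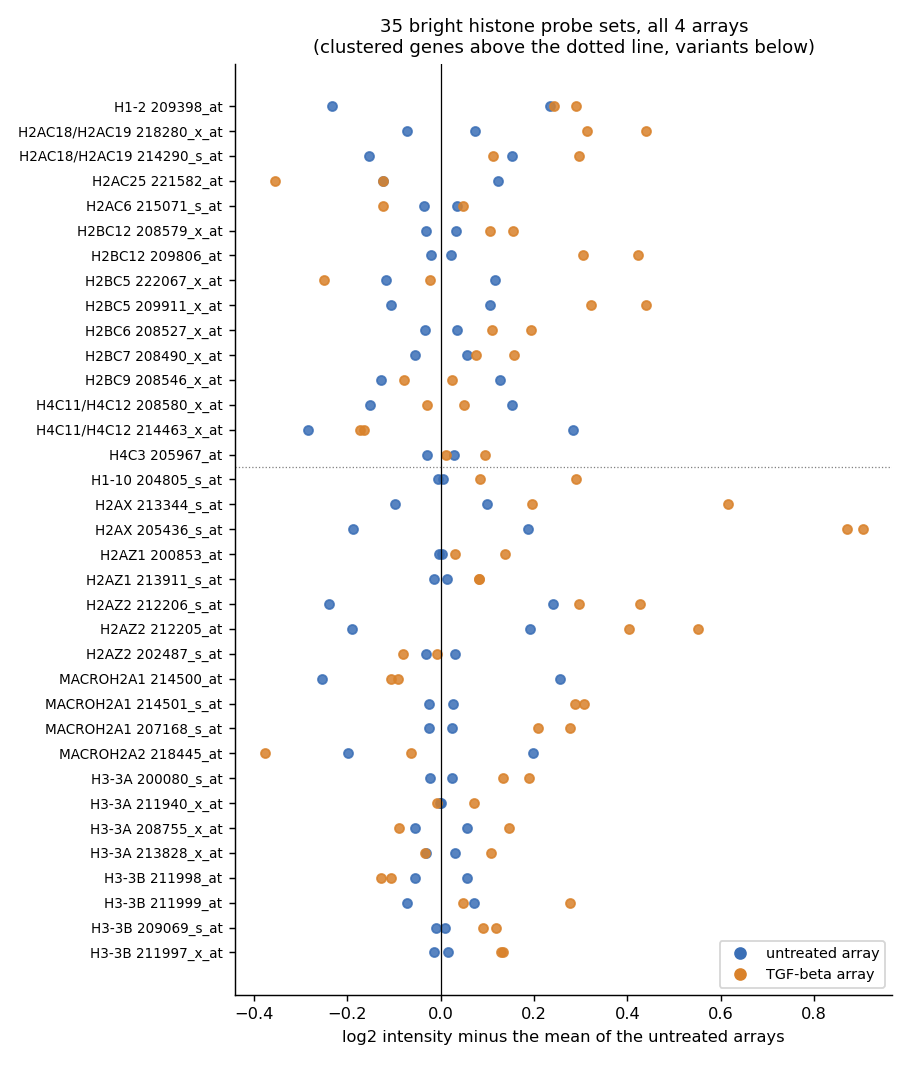
Log2 intensity minus the mean of the untreated arrays (horizontal axis) for the 35 bright histone probe sets, 4 points each (blue untreated, orange TGF-beta), clustered genes above the dotted line and variants below it. Orange points lie wholly to the right of blue ones in 19 rows and wholly to the left in 2.

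**Figure D4:**
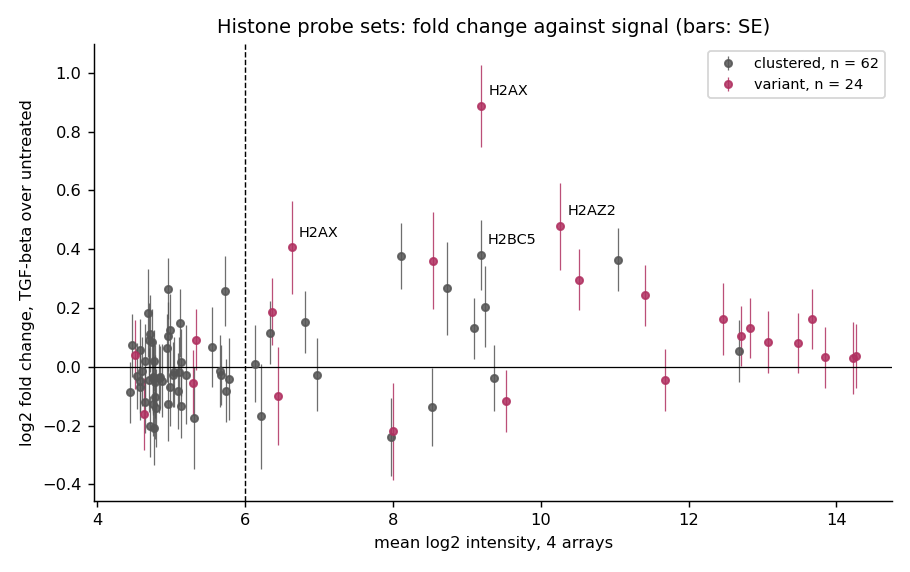
Log2 fold change, TGF-beta over untreated (vertical axis), against mean log2 intensity (horizontal axis) for the 86 histone probe sets, with bars of 1 SE; grey marks clustered genes and red marks variants, and the dashed line is the limit of 6. H2AX stands at 0.89, the next value is 0.48 for H2AZ2, and the lowest is -0.24 for H2AC25.

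Genes that make and handle histones were read against the background of the array, where 0.855% of probe sets were called and, among bright ones, 13.8% were higher and 14.0% lower at an unadjusted p of 0.05. In the list for histone gene transcription and 3′ end processing, 0 of 17 measured genes (16 of them bright) were called, 5 (29.4%) were higher and 2 lower by the unadjusted p of limma at 0.05, and the median was 0.12. The smallest p was that of UPF1, a helicase needed for the decay of histone mRNA, with intensities of 65.4 and 65.4, then 91.3 and 82.0 (0.40 ± 0.11, adjusted p = 0.126). SLBP, which binds the stem-loop of histone mRNA, read 2570 and 2728 on the untreated arrays and 3214 and 3157 after TGF-beta, separate groups with a value of 0.27 ± 0.10 (adjusted p = 0.269). NPAT, the coactivator of clustered histone genes, read 362 and 307, then 268 and 296, so its treated arrays were the lower ones (-0.24 ± 0.12, adjusted p = 0.392).

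The list of histone chaperones, which carry histones to and from DNA, has 32 genes, among them HAT1, a histone acetyltransferase, and CENPA, itself a histone. Of these, 0 were called by limma, 4 were higher (12.5%, near the 13.8% of bright probe sets) and 2 lower by the unadjusted p at 0.05, and the median was 0.06. HIRA, the chaperone that deposits the replacement H3, had the smallest p, with intensities of 487 and 538, then 693 and 712 (0.46 ± 0.11, adjusted p = 0.0999). ANP32E, which removes H2A.Z from nucleosomes, read 4509 and 4417, then 3576 and 3632, lower in both treated arrays (-0.31 ± 0.10, adjusted p = 0.197). CHAF1A, the large subunit of the chaperone that works at replication forks, stood at 0.33 ± 0.16. CENPA, the centromeric H3 that the histone name pattern does not include, stood at -0.05 ± 0.12.

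S phase genes, the usual companions of clustered histone transcription, had 0 calls among 26 by limma, with 8 higher (30.8%, against 13.8% of bright probe sets) and 3 lower (against 14.0%) by the unadjusted p at 0.05. The list median of 0.18 was above that of all probe sets (-0.01), and 12 of 26 had both treated arrays higher (46.2%, against 29.2% of bright genes, since all 26 were bright). GINS1, a subunit of the replicative helicase, had the smallest p, with intensities of 1918 and 2201, then 2628 and 3020 (0.46 ± 0.13, adjusted p = 0.130). PCNA, the replication clamp, overlapped between groups at 0.01 ± 0.12. E2F1, CCNE1 and CCNE2 are in this list and in the first, and MCM2 in this list and among the chaperones. SSRP1 is in the first list and among the chaperones.

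**Figure D5:**
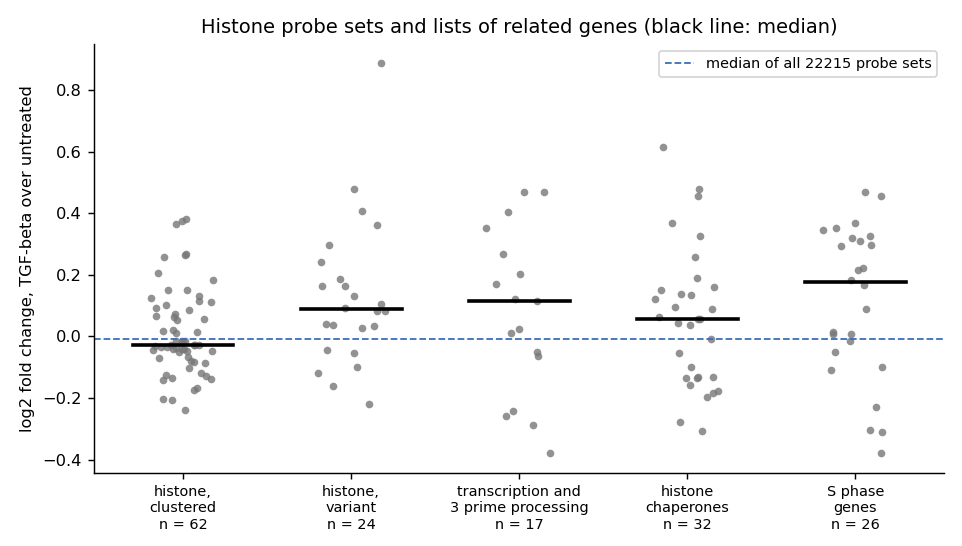
Log2 fold change, TGF-beta over untreated (vertical axis), of clustered and variant histone probe sets and of the 3 lists of related genes, 1 point per probe set or gene, with black lines at the medians and a dashed line at the median of all probe sets. The S phase genes have the highest median, 0.18, and clustered histone probe sets the lowest, -0.03. These sets differ in signal: all 26 S phase genes are bright, while 47 of the 62 clustered histone probe sets are dim. The 15 bright clustered probe sets have a median of 0.12.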

How the data were processed

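Total RNA of 4 Huh-7 samples was hybridised to Affymetrix arrays with biotin label. The authors deposited 1 linear intensity per probe set and array, made with the affy package per the submitters' processing notes (settings not given in the sources used here). Quartiles were nearly equal between arrays, so no scaling was added, and values were converted to log2 with no offset. limma 3.58.1 (R 4.3.3; lmFit and eBayes, 7.43 degrees of freedom) was fitted over all 22215 probe sets, TGF-beta minus untreated, with Benjamini-Hochberg adjustment and calls at 0.05. Fold changes are ratios of geometric means. The platform's annotation named 20292 probe sets, and aliases came from RefSeq (GRCh38.p14), used for names and promoters. Related genes are given by their brightest probe set that names 1 gene. The members, lists and tests were chosen with earlier results of these data known.

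Values in every array were set to be given for called members, for the brightest and the extreme members of each family, and for genes whose probe sets differ by over 0.5. Of each list of related genes, called members or the smallest p were to be named, and other genes were named after their values were seen. On simulated arrays (20 runs of 22215 probe sets, 200 changed) 3.25% of changes of 0.5 and 83.4% of changes of 1 on the log2 scale were recovered, and 5.20% of calls were false. The number of arrays limits the precision. The mean over a gene's probe sets was an alternative added after the data were seen. Same-numbered arrays did not deviate together (correlation of deviations -0.007), so the numbers were not taken as pairs. Plots: matplotlib 3.10.9, Python 3.11.15.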

Additional observations from a re-analysis of the deposited data

How the results depend on the processing

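The count of 1 called histone probe set (H2AX) was the same with arrays centred on their medians, with probe sets naming 1 gene and with the brightest probe set of each gene. It was 0 under quantile normalization (limma, 8 of 86 at an unadjusted p under 0.05), 0 without dim probe sets (6 of 35), 0 with the mean of each gene's probe sets (3 of 59) and 2 with an intensity trend in the variance prior, where H2BC12 was added. Leaving out 1 array at a time gave 0 to 2: the 2 (H2AX and H2AZ2) came without untreated array 2, and the 0 without either TGF-beta array, where by limma 5 (array 1 left out) and 2 (array 2 left out) of 86 had an unadjusted p under 0.05. Calls over all probe sets were 190, and 96 under quantile normalization, 74 without dim probe sets, 708 with the trend, and 0 to 680 on leaving out an array. The median of the histone probe sets moved from 0.01 to 0.12 without dim probe sets, since 51 members drop out. With the replicate number as a block, 977 probe sets were called and H2AX remained the single histone call (adjusted p = 0.00400), and the block changed no other call of a histone probe set. Over all 86 histone probe sets, 39 changed sign when some array was left out, among them 8 of the 35 bright ones. Under quantile normalization 1 changed sign, and 3 did with arrays centred on their medians. The 8 with an unadjusted limma p under 0.05 kept their sign. In each of these 8 both treated arrays were above both untreated ones. Leaving out 1 array could therefore not turn them. Of the 21 picked by the naming rule, 6 turned under an alternative. On leaving out 1 array at a time these were H4C4 (-0.44 to 0.090), H1-4 (-0.11 to 0.024), H3-3A at 213828_x_at (-0.034 to 0.11) and H2AX at 212524_x_at (-0.052 to 0.13, turned without either of 2 arrays). With the mean of each gene's probe sets they were H2AZ2 (0.26) and H2BC5 (0.12), where the mean replaces the probe set. The cause of the other changes was not tested. Values of dim probe sets have little room to fall. On the simulated arrays, with 200 of 22215 probe sets changed, most changes of 0.5 on the log2 scale were missed. Recovery with another share of changed probe sets was not tested.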

Other observations

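The 10 probe sets that matched the histone name pattern only through an old alias of another gene had 0 calls (limma), with 1 higher and 3 lower by the unadjusted p at 0.05. The 3 lower ones all name CLIC4, an intracellular chloride channel protein, 1 of them together with ADD3. Probe set 201559_s_at of CLIC4 read 623 and 513 on the untreated arrays and 364 and 440 after TGF-beta (-0.50 ± 0.14, SE, adjusted p = 0.146). Probe set 201560_at read 2449 and 2666, then 2127 and 2147 (-0.26 ± 0.11, adjusted p = 0.293), and 221881_s_at read 409 and 353, then 228 and 308 (-0.52 ± 0.16, adjusted p = 0.173). In all 3 the treated arrays were the lower ones. Taken singly, 24.9% of all probe sets and 31.0% of the bright ones showed this, and these 3 bright probe sets share a gene.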
